A study of Caenorhabditis elegans with 6 samples.

Results

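The 7 genes described here encode parts of the structures that hold the worm epidermis to muscle and cuticle: mup-4, mua-3, let-805, vab-10, vab-19, ifb-1 and ifa-3. They were chosen by name from the 32238 genes of both count tables, and mup-4 headed the choice because its antisense counts had been seen to differ between the genotypes. The antisense values below are therefore a description and carry no test. The sense counts are a separate measure of the same genes and are given with their test.

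In Caenorhabditis elegans the body wall muscles lie beneath a thin epidermis, and muscle force reaches the cuticle through fibrous organelles, which resemble the hemidesmosomes of vertebrates. Each has a basal and an apical membrane plaque joined by intermediate filaments, and embryos that lack a component often fail to elongate or detach their muscles. Worms also make small interfering RNAs that are antisense to messenger RNAs, copied from them by RNA-dependent RNA polymerases, so antisense small RNA at a gene may hold such RNAs while sense small RNA at a protein-coding gene may hold fragments of its transcript. Counts per gene do not give read length or first base, so these classes were not separated here.

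Small RNA was sequenced from pooled Caenorhabditis elegans embryos of 2 genotypes with 3 libraries each. One group carried dot-1.1(knu339) together with ced-3(n1286), and the other carried ced-3(n1286) alone, so every library lacks normal function of the cell death caspase CED-3. DOT-1.1 is related to mammalian DOT1L, which methylates lysine 79 of histone H3. Worms were fed Escherichia coli OP50 at 20 °C and embryos were released from egg-laying adults with hypochlorite. Each genotype is 1 strain, and the sources used here do not say how the dot-1.1 allele alters the gene. The groups are called the double mutant and the single mutant below. Because whole embryos were used, fewer epidermal cells and less RNA per cell cannot be told apart.

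Libraries held 19206363 to 26409182 sense and 4891289 to 6568937 antisense counts. Single mutant replicate 2 and double mutant replicate 3 stood apart, with microRNA genes taking 92.4% and 89.5% of sense counts against 72.9% to 86.7% in the other 4. These 2 libraries also had the fewest sense counts in protein-coding genes, 541728 and 717579 against 999003 to 1355504. The embryonic microRNAs mir-35 to mir-42 had 4834074 to 8563569 sense counts per library, while let-7 and lin-4, which mark later stages, had 307 to 970 together. Normalised counts below are counts per 1000000 of a library's TMM-adjusted size, with TMM computed in each table separately, and means are ± SD over 3 libraries.

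The members differ widely in length and isoforms. All coordinates are WBcel235. On chromosome III lie mup-4 (WBGene00003497, 7479680 to 7489105, minus strand), let-805 (WBGene00002915, 2658083 to 2681112, plus strand) and mua-3 (WBGene00003482, 10160697 to 10183529, plus strand). On chromosome II lie vab-19 (WBGene00006882, 2443279 to 2450947) and ifb-1 (WBGene00002053, 5765618 to 5772084), both on the plus strand. The gene vab-10 (WBGene00006876, chromosome I, 11747424 to 11804991) and ifa-3 (WBGene00002051, chromosome X, 16267197 to 16270069) are on the minus strand. Exon lengths in the authors' tables run from 2061 bases for ifa-3 to 24641 for vab-10, and the annotation lists 14 transcripts for vab-10, 4 for let-805, 2 each for mua-3 and ifb-1 and 1 for each of the others. No annotated exon base of mup-4, mua-3, let-805, vab-19 or ifa-3 lies across from an annotated exon on the other strand. For the remaining members, 28 bases of vab-10 exons overlap Y47H9B.2 and 31 bases of ifb-1 exons overlap dmd-5. Annotated exons of vab-19, vab-10 and ifb-1 (3171, 24099 and 2243 bases) are shorter than the authors' lengths (3367, 24641 and 2291). Part of those lengths was therefore not checked, and reads with several matches could not be checked in any member.

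Among the apical transmembrane proteins, mup-4 had more antisense small RNA in the double mutant. MUP-4 spans the apical membrane of the epidermis, carries epidermal growth factor-like repeats and is needed for embryonic elongation and for muscle position. Replicates 1, 2 and 3 of the single mutant gave 10, 4 and 11 antisense counts at mup-4, and those of the double mutant 41, 27 and 35. Normalised, these were 1.51, 0.863 and 2.03 against 7.23, 3.99 and 8.48, so each double mutant library lay above each single mutant library. The means were 1.47 ± 0.585 and 6.57 ± 2.32 (n = 3), a fitted log2 fold change of 2.12 ± 0.46 (SE), or 4.34-fold. The sense counts of mup-4, in the same order, were 96, 14 and 57 against 90, 29 and 13. Normalised means of these sense counts were 2.005 ± 0.809 and 1.96 ± 1.501 (n = 3), the genotypes overlapped, and the sense log2 fold change was -0.03 ± 0.58 (edgeR adjusted p = 0.992).

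MUA-3, a larger relative of MUP-4 in the same apical plaque, is needed to keep muscles attached as larvae grow. At mua-3 the single mutant libraries gave 18, 4 and 13 antisense counts and the double mutant libraries 50, 22 and 18. The normalised values, 2.72, 0.863 and 2.40 against 8.81, 3.25 and 4.36, did not overlap, although the raw counts did. Single mutant replicate 1 and double mutant replicate 3 both had 18 counts, with antisense totals of 4891289 and 6568937 and TMM factors of 1.36 and 0.628. Scaled to library totals the genotypes would therefore overlap, while scaled to antisense counts of protein-coding genes they lay apart. The antisense log2 fold change was 1.42 ± 0.53 (SE), or 2.68-fold, and replicate 1 of the double mutant was the highest library. Sense counts of mua-3 were 127, 22 and 69 against 75, 35 and 35, with normalised means of 2.65 ± 0.871 and 2.36 ± 0.769 (n = 3). Those groups overlapped, and the sense log2 fold change was -0.18 ± 0.45 (edgeR adjusted p = 0.934).

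Normalised antisense counts lay apart and higher in the double mutant for 2 of the 5 members that passed the low count filter (mup-4, mua-3, let-805, vab-10 and ifa-3). Of all 7297 genes tested in the antisense table, 5.26% lay apart in this direction (384 genes), and 365 genes lay apart in the other. The share among the members is not read against that background, because the contrast was used in choosing them. Both mup-4 and mua-3 passed the filter, which asks for a count of about 10 in at least 3 libraries, with 3 double mutant and 2 single mutant libraries at its limit. Over all genes of the antisense table edgeR called 0 higher and 0 lower at an adjusted p under 0.05 (0% in each direction). Before adjustment, 211 genes were higher and 173 lower at p under 0.05, which is 2.89% and 2.37%. With DESeq2 the calls were 0 higher and 6 lower (0% and 0.0220% of 27264 genes), none of them a member.

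**Figure D1:**
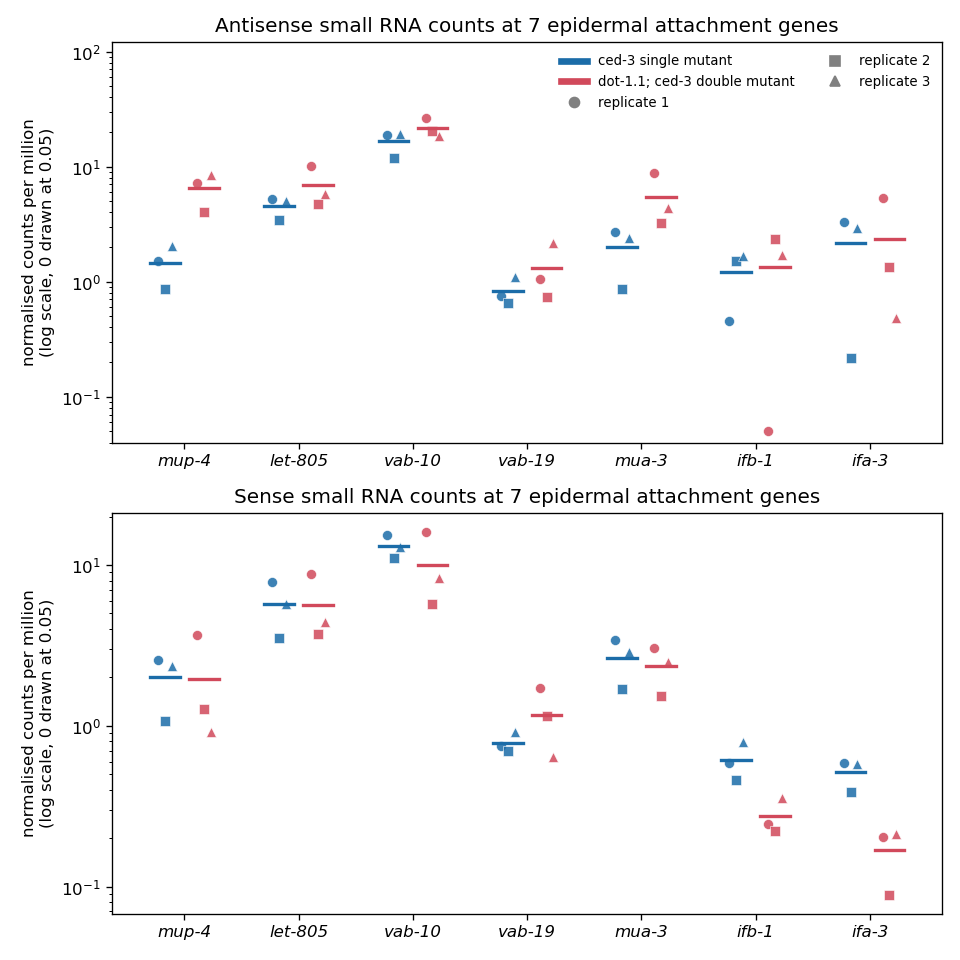
Normalised antisense (top) and sense (bottom) small RNA counts per 1000000 of the adjusted library size on a log axis, for 7 attachment genes. Points are libraries, with the shape giving the replicate, and bars are means of 3. Antisense points of mup-4 and mua-3 do not overlap between genotypes, and in the lower panel those of ifb-1 and ifa-3 do not. A value of 0 (antisense ifb-1, double mutant replicate 1) is drawn at 0.05.

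At the basal membrane, let-805 encodes myotactin, a receptor-like protein with fibronectin type III repeats that faces the muscle. At let-805 antisense counts were 35, 16 and 27 (single mutant) against 57, 32 and 24 (double mutant). Normalised means were 4.57 ± 0.981 and 6.86 ± 2.81 (n = 3), and the genotypes overlapped, with a log2 fold change of 0.58 ± 0.39 (SE). Sense counts were 294, 46 and 138 against 215, 84 and 62, with a log2 fold change of -0.02 ± 0.52 (edgeR adjusted p = 0.993). In both genotypes the highest sense library was replicate 1.

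The cytoplasmic linker is VAB-10, a spectraplakin made as a plectin-like form that sits in both plaques and as a form that binds actin and microtubules; counts per gene pool both forms. It held the most counts of the 7 genes, with 41.6% to 58.5% of their summed sense counts and 44.4% to 61.1% of their summed antisense counts in a library. The single mutant libraries held 124, 55 and 104 antisense counts at vab-10, and the double mutant libraries 151, 138 and 76. The normalised antisense means were 16.6 ± 4.097 and 21.8 ± 4.27 (n = 3), overlapping between genotypes, with a log2 fold change of 0.39 ± 0.35 (SE). Sense counts were 573, 144 and 311 against 395, 129 and 118, with a log2 fold change of -0.38 ± 0.53 (edgeR adjusted p = 0.859).

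VAB-19, a Kank family ankyrin repeat protein, keeps the attachments in register with the muscle as the embryo elongates. Its antisense counts, 5, 3 and 6 (single mutant) against 6, 5 and 9 (double mutant), were too low for the filter. Sense counts were 28, 9 and 22 against 42, 26 and 9, and normalised means 0.785 ± 0.115 and 1.17 ± 0.540 (n = 3) overlapped. The sense log2 fold change was 0.58 ± 0.47 (edgeR adjusted p = 0.715).

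The intermediate filaments that link the plaques are built from IFB-1 paired with an A-type protein such as IFA-3. At both genes normalised sense counts were lower in each double mutant library than in any single mutant library. At ifb-1 the single mutant libraries had 22, 6 and 19 sense counts and the double mutant libraries 6, 5 and 5. Normalised sense means of ifb-1 were 0.613 ± 0.165 and 0.273 ± 0.0712 (n = 3). At ifa-3 the sense counts were 22, 5 and 14 against 5, 2 and 3, with normalised means of 0.518 ± 0.116 and 0.168 ± 0.0696 (n = 3). Reads shared with related filament genes cannot be told apart here. In raw counts the genotypes met, at 6 counts for ifb-1 and 5 for ifa-3, in single mutant replicate 2 and double mutant replicate 1. Scaled to the sense counts of protein-coding genes they lay apart again. Scaled to library totals they would overlap, because the former library held 22344506 sense counts and the latter 19659269. The gap therefore depends on the scaling, with TMM factors of 0.581 and 1.24 in these libraries.

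Neither filament gene passed the sense filter, whose limit was reached in 2 single mutant and 0 double mutant libraries for each, so the main test does not cover them. Tested without a low count filter, ifa-3 had a sense log2 fold change of -1.82 ± 0.74 (SE; edgeR adjusted p = 0.445) and ifb-1 one of -1.36 ± 0.67 (edgeR adjusted p = 0.642), so neither passed. Of 8565 genes with at least 51 sense counts in all, the sum at ifa-3, 6.15% lay apart and lower in the double mutant. Antisense counts of ifb-1 were 3, 7 and 9 (single mutant) against 0, 16 and 7 (double mutant), below the filter. Those of ifa-3 were 22, 1 and 16 against 30, 9 and 2, with a log2 fold change of 0.12 ± 0.95 (SE). The latter is set by single libraries: it was -1.18 without replicate 1 of the double mutant and -0.38 without replicate 2 of the single mutant.

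None of the 5 members tested in the sense table passed, and over that table edgeR called 0 of 7680 genes higher and 0 lower (0% in each direction). Before adjustment, 439 genes (5.72%) were higher and 185 (2.41%) lower at p under 0.05, and the DESeq2 calls were 9 higher and 1 lower of 5183 (0.174% and 0.0193%), no member among them. Normalised sense counts overlapped between the genotypes in all 5 members tested, while of all genes tested 6.97% lay apart and higher and 5.79% apart and lower in the double mutant. The standard errors of the members' sense log2 fold changes ran from 0.45 to 0.58, so differences of that size were not detectable at this precision. A larger fitted value was not called either: the GATA factor gene egl-18, at -2.34 ± 0.52 in the sense table, had an edgeR adjusted p of 0.592. Whether that gene differs between the genotypes is not settled by this value. Leaving out replicate 1 of the double mutant gave lower sense values for mup-4 (-0.91), let-805 (-0.55), mua-3 (-0.47), vab-10 (-0.95) and vab-19 (0.18). At the other end, the vab-10 value was -0.09 without replicate 2 of the double mutant and the vab-19 value 0.85 without its replicate 3.

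Per kilobase of exon, antisense small RNA at these genes was below the median of protein-coding genes that passed the antisense filter. Mean normalised antisense counts per kilobase in the single mutant were 0.165 for mua-3, 0.217 for mup-4, 0.248 for vab-19, 0.322 for let-805, 0.527 for ifb-1, 0.673 for vab-10 and 1.05 for ifa-3. The median over the 6188 protein-coding genes that passed the antisense filter was 2.13, and the lower quartile 1.24. That filter acts on counts per gene, so short genes pass it only at higher levels per kilobase than long ones. The comparison is therefore not free of gene length, and vab-19 and ifb-1 did not pass that filter. In the double mutant mup-4 reached 0.973 ± 0.343 and mua-3 0.454 ± 0.244 per kilobase (n = 3), still below the lower quartile of 1.34 there. In the single mutant order the neighbours mua-3 (0.165 ± 0.0822), mup-4 (0.217 ± 0.0866) and vab-19 (0.248 ± 0.0715) lay within 1 SD of each other in turn, while let-805 (0.322 ± 0.0691) lay more than 1 SD above vab-19. On the sense strand, per kilobase levels in the single mutant ran from 0.220 for mua-3 to 0.532 for vab-10. The median over 5983 protein-coding genes that passed the sense filter was 0.484, with the same limit.

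Summed over the 7 genes, most reads were sense in each single mutant library, with antisense shares of 15.7%, 26.8% and 22.8%. This did not hold for each gene. At ifa-3 the single mutant shares ran from 16.7% in replicate 2 to 53.3% in replicate 3, and 39 of 80 pooled counts (48.75%) were antisense. At ifb-1 the pooled share was 28.8%, with 53.9% in replicate 2. In the single mutant libraries antisense counts made up 9.43%, 22.2% and 16.2% of all mup-4 counts, and in those of the double mutant 31.3%, 48.2% and 72.9%. Pooled over libraries, that was 25 of 192 counts (13.02%, Wilson 95% interval 8.98% to 18.5%) and 103 of 235 (43.8%, 37.6% to 50.2%), intervals that cover counting error only. For mua-3 the shares were 12.4%, 15.4% and 15.8% against 40.0%, 38.6% and 33.96%, and for vab-10 17.8%, 27.6% and 25.1% against 27.7%, 51.7% and 39.2%. In these 3 genes the genotypes lay apart, though for vab-10 the nearest libraries were at 27.6% and 27.7%, and in let-805, vab-19, ifb-1 and ifa-3 they overlapped. Among 5163 protein-coding genes with at least 105 counts, a count in each library and no exon on the other strand, 8.56% lay apart in this direction and 1.90% in the other. Over 5189 genes outside the 7, taken without asking for a count in each library, the single mutant had a median antisense share of 44.3% and the double mutant one of 51.8%. These shares use the antisense counts that chose mup-4, so they are a description.

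**Figure D2:**
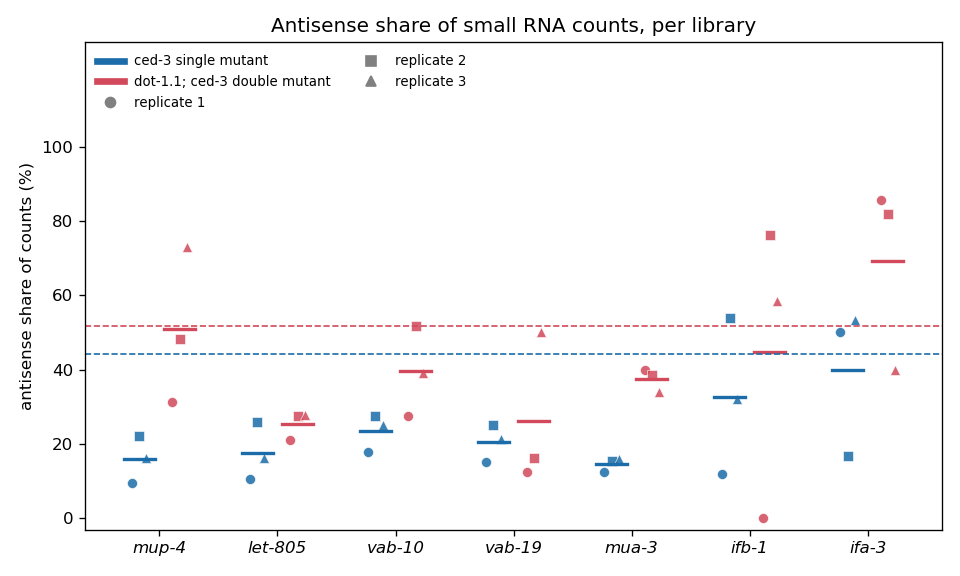
Antisense counts as a percentage of sense plus antisense counts, for 7 genes. Points are libraries, bars are means of 3, and dashed lines are the medians over 5189 other protein-coding genes in each genotype (44.3% and 51.8%). At mup-4 the 3 double mutant libraries (31.3% to 72.9%) sit above the 3 single mutant libraries (9.43% to 22.2%).

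Other genes of epidermal attachment and elongation, and the filament genes listed with them, gave no call in either table. A list of 10 further fibrous organelle and intermediate filament genes was not confined to the epidermis. Of these, 3 passed the antisense filter, with 0 above 0 and a median log2 fold change of -0.05. Genes below the filter are not in that median and went both ways. Antisense counts of the intestinal filament gene ifb-2 were 1, 0 and 1 (single mutant) against 33, 11 and 3 (double mutant). Those of ifd-2 were 11, 3 and 16 against 8, 5 and 2. Among the 3 that passed, pat-12, another fibrous organelle component, gave 18, 13 and 17 antisense counts against 27, 11 and 8, single mutant first (log2 fold change -0.05 ± 0.47). The filament genes ifa-1 and ifa-4 had antisense log2 fold changes of -0.01 ± 0.57 and -0.51 ± 0.54. Exons of ifa-4 overlap K05B2.2 on the other strand by 17 bases, so its counts are uncertain. Leaving out 1 library took the median of the 3 genes past the filter from -0.60, without replicate 1 of the double mutant, to 0.24, without its replicate 2. Over all genes tested 51.8% of antisense log2 fold changes were above 0, with a median of 0.02. Of 21 epidermal junction and elongation genes, 16 were tested for antisense counts and 9 lay above 0 (median 0.09). The most abundant was the E-cadherin gene hmr-1, with normalised antisense means of 133 ± 78.4 and 196 ± 50.4 (n = 3), overlapping between genotypes (edgeR adjusted p = 0.912). Next in level were eps-8, an actin regulator, at -0.71 ± 0.44 and nmy-2, a non-muscle myosin, at -0.09 ± 0.31 on the log2 fold change scale. Exons of eps-8 overlap 21ur-4916 and 21ur-12037 on the other strand by 14 and 2 bases, so its counts are uncertain.

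Of 18 muscle attachment and basement membrane genes, 12 were tested for antisense counts and 8 lay above 0 (median 0.30), and unc-52, the perlecan of the matrix beneath the attachments, had a log2 fold change of -0.08 ± 0.40. The antisense median of this list was 0.0034 without replicate 2 of the single mutant, -0.03 without replicate 1 of the double mutant and 0.54 without its replicate 3. Of 9 apical matrix genes 3 were tested, with 2 above 0 (median 0.45), and of 8 epidermal transcription factors 4 were tested, with 2 above 0 (median 0.11). Without replicate 3 of the double mutant the matrix median was 0.08, and without replicate 1 of the single mutant that of the factors was -0.00033. The fibrillin-like gene fbn-1 had the highest antisense counts of the matrix list, 232, 253 and 200 against 274, 266 and 363 (log2 fold change 0.47 ± 0.45), followed by egg-6 (-0.27 ± 0.32) and noah-2 (0.45 ± 0.44). Among the factors, lin-26, which sets epidermal fate, had an antisense log2 fold change of 0.36 ± 0.37, nhr-23, a nuclear receptor of the moulting cycle, -0.13 ± 0.36 and egl-18 1.47 ± 0.86. The type IV collagen gene emb-9 had the highest antisense level of the basement membrane genes, and its log2 fold change was -1.21 ± 0.72 (edgeR adjusted p = 0.847), while him-4, which encodes hemicentin, had 0.35 ± 0.46. Exons of him-4 overlap F15G9.5 on the other strand by 570 bases, those of fbn-1 overlap upp-1 by 45 and those of unc-52 overlap hhat-1 by 6. Their counts are therefore uncertain.

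Of sense log2 fold changes, 16 of 17 tested junction and elongation genes were below 0 (median -0.31), as were those of 6 of 7 apical matrix genes (median -0.52), where 50.8% of all genes tested lay above 0 (median 0.01). The size of these medians depended on the processing. With library totals they were -0.80 and -1.02, a setting that shifted the median of all genes by -0.28. Genes of a list share the same 6 libraries, so their signs are not independent. Of the filament list 4 of 6 lay above 0 (median 0.75), of the muscle attachment list 8 of 17 (median -0.03) and of the transcription factors 2 of 6 (median -0.25). The filament list includes the intestinal gene ifb-2 (1.02 ± 0.69), so its median does not describe epidermal attachment genes alone. Single libraries set the sign of some of these sense medians. The filament median was -0.05 without replicate 1 of the double mutant, and that of the factors 0.18 without replicate 2 of the single mutant. The muscle attachment median ran from -0.38 without replicate 1 of the double mutant to 0.15 without its replicate 3. Members of these lists with an unadjusted p under 0.05 were unc-112, the kindlin of muscle attachments (sense log2 fold change -0.98 ± 0.40), and egl-18, a GATA factor of seam cells (-2.34 ± 0.52). Both had an edgeR adjusted p of 0.592 and did not pass. Exons of unc-112 overlap gasr-8 on the other strand by 122 bases, so its counts are uncertain.

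**Figure D3:**
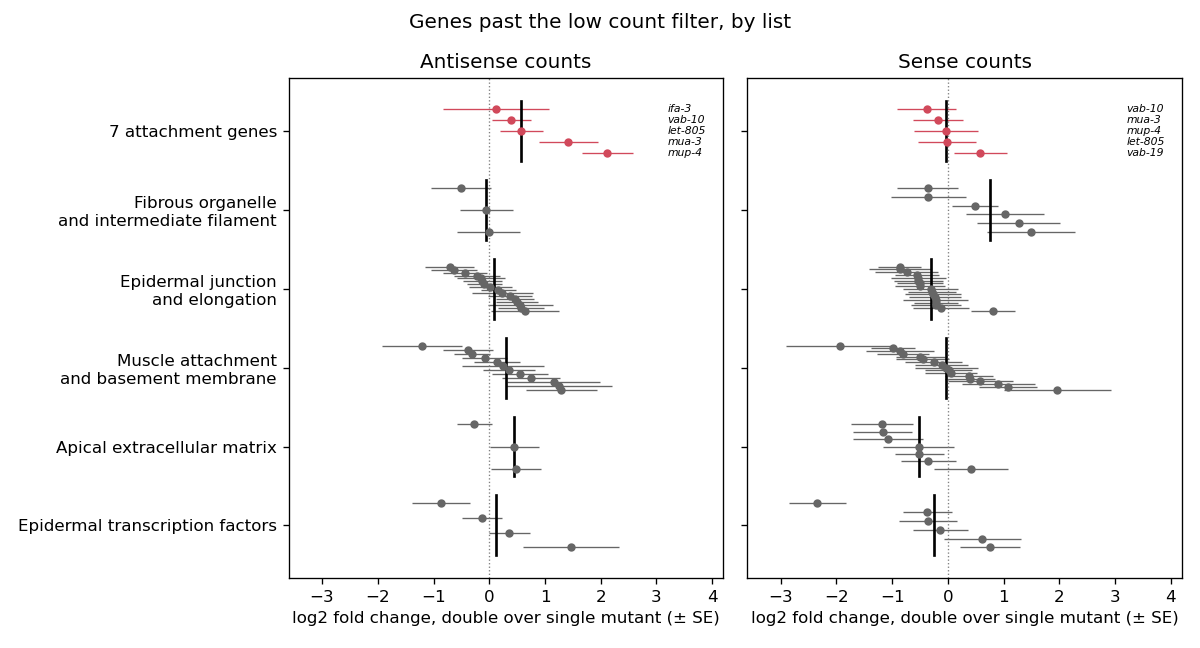
Log2 fold change of double over single mutant with SE for each gene past the low count filter, in the antisense (left) and sense (right) tables. Red points are the attachment genes, named in order at the right of each panel; gray points are the genes of 5 related lists, and black bars are medians. The antisense points of mup-4 (2.12) and mua-3 (1.42) lie farthest right among the members.

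Markers of other tissues were summed beside these results. Summed over 5 intestinal markers, normalised antisense counts ranged from 0.554 to 0.905 (single mutant) and from 1.45 to 8.64 (double mutant), with no overlap. The unscaled sums were 6, 3 and 3 against 49, 18 and 6. Of these ifb-2, an intestinal intermediate filament gene singled out after its values were seen, held 1, 0 and 1 against 33, 11 and 3. The gap rests on that gene: without it, replicate 1 of the single mutant lay above replicate 3 of the double mutant in normalised counts. Of single genes tested in the antisense table, 5.26% lay apart and higher in the double mutant, and no such share was computed for sums. Antisense counts of 5 muscle markers overlapped, at 42.5 to 158 against 53.6 to 137, as did those of 5 neuronal markers, at 8.41 to 10.7 against 7.40 to 13.4. The 5 germ line markers ranged from 28.7 to 30.5 and from 24.5 to 33.3, and the 4 yolk protein genes from 4.96 to 10.9 and from 9.02 to 15.9. Summed normalised sense counts overlapped in each of these 5 lists. Muscle markers had 27.97, 11.6 and 18.5 sense (single mutant) against 77.6, 53.1 and 8.01 (double mutant), with replicates 1 and 2 of the double mutant highest. The intestinal sums were 3.18, 2.39 and 3.12 against 7.12, 2.735 and 1.205, and the neuronal 3.80, 1.08 and 2.79 against 5.52, 3.44 and 2.34. Germ line markers had 8.53, 25.95 and 10.1 against 8.92, 8.47 and 14.7. Yolk protein genes were at 0.154 in replicate 2 of the single mutant and at 6.63 to 15.1 in the other 5 libraries. Of all markers in these lists, lin-4 alone had 0 antisense counts in every library. The part of tissue makeup or embryo age in the antisense and sense values of the members was not tested.

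The antisense profile of mup-4 over the 6 libraries was most like those of aspm-1, K02A4.9, R04E5.13, Y56A3A.7 and lin-17, with Pearson r of log2 normalised counts from 0.967 to 0.982. These correlations compare 6 libraries that share their scaling, and describe a profile that separates the genotypes. Antisense counts of lin-17, which encodes a Frizzled receptor for Wnt signals, were 5, 3 and 6 (single mutant) against 15, 18 and 16 (double mutant). Those of aspm-1, a spindle pole protein gene, were 514, 303 and 412 against 603, 621 and 505. The non-coding genes K02A4.9 and R04E5.13 overlap genes on the other strand by 82 and 70 bases, so their antisense counts are uncertain. Among the members, r with mup-4 was 0.877 for mua-3, 0.741 for let-805, 0.721 for vab-10 and 0.196 for ifa-3. Their ranks among 7296 genes were 109, 435, 488 and 2816. The antisense contrast was used in choosing the members, so these values are a description.

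The size of the antisense differences varied over the 13 processing alternatives run. Their sign is no measure of stability, because this contrast chose the members and the mup-4 counts do not overlap between genotypes. For mup-4 the log2 fold change ran from 1.64, without the 2 microRNA-rich libraries, to 2.39, without replicate 2 of the double mutant. For mua-3 it ran from 0.89, without replicate 1 of the double mutant, to 1.70, so that library moved its fold change most. For let-805 it ran from 0.19 to 0.80 and for vab-10 from 0.20 to 0.57.

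**Figure D4:**
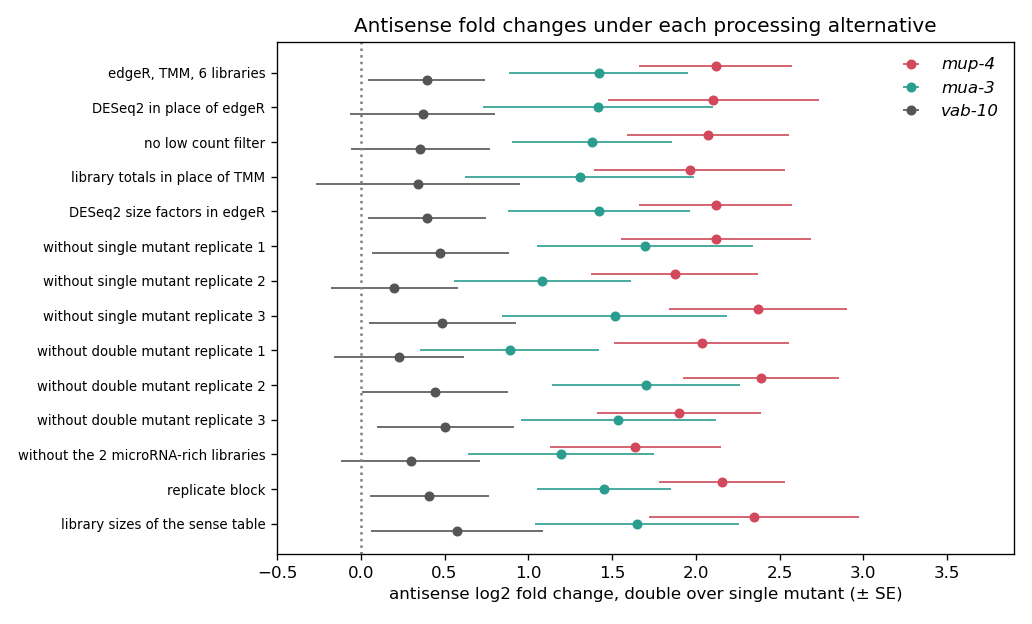
Antisense log2 fold change (double over single mutant, ± SE) of mup-4, mua-3 and vab-10 in the edgeR fit of 6 libraries and under 13 alternatives. The points of mup-4 lie between 1.64 and 2.39 and those of mua-3 between 0.89 and 1.70.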

How the data were processed

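Per the labels' protocols, inserts of 18 to 40 bases were size selected and sequenced as single reads of 50 bases, and the submitters' processing notes name the build WBcel235. Aligner, counter and handling of reads with several matches: not given in the sources used here. Raw counts per gene were deposited by the authors in 2 tables, 1 named antisense, the other read as sense. Columns of replicates 2 and 3 carry other numbers than the titles' short names, so the sample within a genotype is uncertain. Of 32238 genes, 31418 matched RefSeq and 31456 Ensembl.

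Each table was fitted in edgeR 4.0.16 (R 4.3.3; filterByExpr with a minimum count of 10, TMM, robust quasi-likelihood F test, 6 libraries), with Benjamini-Hochberg adjustment over all genes tested and 0.05 as threshold; SE is the log2 fold change divided by the square root of F. The edgeR fit was tested on simulated counts for each table. DESeq2 1.42.0 was an alternative and was not simulated. Profiles used a prior count of 2. Members and lists were chosen with earlier results of these data known. Named genes are the members, list genes with an unadjusted p under 0.05 or among a list's 3 highest in antisense level, 5 genes most like mup-4, and genes overlapping members. The sample titles call the libraries biological replicates. P-values reflect the spread among these 6 libraries alone, part of which may be technical.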

Additional observations from a re-analysis of the deposited data

How the results depend on the processing

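The count of genes called, 0 in both tables, stayed at 0 under library totals, DESeq2 size factors, microRNA library sizes (sense) and protein-coding library sizes (sense, chosen after seeing the data). With no low count filter edgeR called 114 antisense genes (89 higher and 25 lower; mup-4 was among them, which carries no weight because this contrast chose it) and 117 sense genes (102 higher and 15 lower, no member). DESeq2 called 6 and 10, antisense counts scaled by the sense table gave 3, and the sense table without the 2 microRNA-rich libraries gave 151 (142 higher and 9 lower), none of them a member. Leaving out 1 library gave 0 antisense calls, and 0 to 6 sense calls, the 6 without replicate 3 of the double mutant. The cause was not tested. With the replicate number as a block both counts were 0. Same-numbered libraries did not all deviate together (correlations of 0.640, -0.022 and -0.034 antisense, and 0.646, 0.0143 and -0.136 sense), and replicate 2 of the single mutant correlated best with replicate 3 of the double mutant (0.552 and 0.538), so the numbers were not taken as pairs.

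Sense log2 fold changes near 0 turned positive for mup-4 (0.03, 0.21 and 0.27 without single mutant replicate 1, double mutant replicate 2 or 3, and 0.00035 without the 2 microRNA-rich libraries), for let-805 (0.14, 0.21 and 0.11 without the same 3 libraries) and for mua-3 (0.069 without double mutant replicate 2). Leaving out 1 library moved the mup-4 sense value from -0.91 to 0.27, the let-805 value from -0.55 to 0.21 the mua-3 value from -0.47 to 0.069, the vab-10 value from -0.95 to -0.09 and the vab-19 value from 0.18 to 0.85. The other 62 alternative sense values of members kept direction, and none passed. Of 162 alternative list medians 16 moved beyond the spread between libraries; medians whose sign turned on 1 library are given with the lists. Library totals, microRNA and protein-coding library sizes shifted the median of all sense log2 fold changes by -0.28, -0.19 and -0.25, and sense-table sizes shifted the antisense median by 0.11. Counts of 4 to 41 per library limit the precision of mup-4 antisense values.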
